A study of Homo sapiens with 8 samples.

Results

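Expression of 9 chromatin regulator genes that work with the EWSR1::FLI1 fusion protein or against it was described in 2 Ewing sarcoma cell lines. The genes were chosen by name, as subunits of the BAF chromatin remodelling complex (SMARCA4, SMARCA2, SMARCC1, SMARCB1, ARID1A and ARID1B) and as the enzymes EP300, EZH2 and KDM1A. Each symbol had 1 entry among the 60332 genes of the table, and all 9 were among the 15175 genes that passed a filter on low values (mean over all libraries of 1 FPKM or more). FPKM is a read number divided by transcript length and library size, so that levels of different genes can be set side by side.

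The lines were RD-ES and SK-N-MC, both derived from Ewing sarcoma tumours, and for each line there were 2 control and 2 eKD2 RNA-seq libraries (8 in all). In eKD2 cells a lentivirus delivered dCas9-KRAB, in which a catalytically dead Cas9 is joined to KRAB, a repressor domain, along with a guide RNA that matches DNA beside the GGAA repeat in the enhancer of LOXHD1. The controls carried the virus with dCas9-KRAB and no guide according to the sample labels, whereas the paper speaks of parental cells. Infection was at a multiplicity of 10, puromycin selection (1 µg/ml) lasted 3 days, and the resulting pools of cells, not clones, were used within 5 passages. The paper describes the libraries of a condition as biological duplicates, while the labels do not say how the cultures were separated. The p-values measure the spread between these libraries.

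BAF complexes slide and evict nucleosomes with the energy of ATP and so open enhancers and promoters. SMARCA4 (BRG1) and SMARCA2 (BRM) are alternative motor subunits, of which a complex holds either, and SMARCC1 and SMARCB1 belong to the core. ARID1A and ARID1B are alternative DNA-binding subunits of the canonical BAF form. EWSR1::FLI1 recruits BAF to GGAA repeats, where EP300, an acetyltransferase, acetylates histone H3 at lysine 27. KDM1A (LSD1) removes methyl groups from histone H3 lysine 4 and works in the CoREST and NuRD corepressor complexes. EZH2 is the catalytic subunit of Polycomb repressive complex 2 (PRC2), which methylates histone H3 lysine 27 and acts in opposition to BAF.

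The motor subunit genes SMARCA4 and SMARCA2 are shown with their start windows because SMARCA2 was the member that differed most between the lines. The windows are RefSeq reference sequence of GRCh38.p14 and hold 300 bases, from upstream of an annotated start to just after it. Both genes lie on the plus strand, and capitals mark GGAA or its reverse complement TTCC, the ETS core motif that EWSR1::FLI1 reads. The windows are at chr9:2015097-2015396 (SMARCA2, upstream start), chr9:2158214-2158513 (SMARCA2, internal start) and chr19:10960780-10961079 (SMARCA4, upstream start). Of the 4 SMARCA2 and 2 SMARCA4 windows in the table, the most upstream window of each gene is shown, together with the SMARCA2 window that holds a doubled GGAA motif.
SMARCA2 upstream start: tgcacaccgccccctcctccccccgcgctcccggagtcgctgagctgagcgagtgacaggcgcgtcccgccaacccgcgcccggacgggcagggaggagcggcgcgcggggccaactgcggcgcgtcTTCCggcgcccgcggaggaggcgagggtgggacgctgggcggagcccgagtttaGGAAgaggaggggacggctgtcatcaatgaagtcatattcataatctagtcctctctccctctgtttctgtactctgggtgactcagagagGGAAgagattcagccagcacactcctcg
SMARCA2 internal start: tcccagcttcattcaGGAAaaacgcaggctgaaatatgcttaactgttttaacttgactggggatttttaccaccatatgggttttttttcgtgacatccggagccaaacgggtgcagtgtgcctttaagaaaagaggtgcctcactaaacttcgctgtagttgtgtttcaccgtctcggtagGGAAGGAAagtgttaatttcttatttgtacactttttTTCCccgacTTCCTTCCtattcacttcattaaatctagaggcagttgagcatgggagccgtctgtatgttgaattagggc
SMARCA4 upstream start: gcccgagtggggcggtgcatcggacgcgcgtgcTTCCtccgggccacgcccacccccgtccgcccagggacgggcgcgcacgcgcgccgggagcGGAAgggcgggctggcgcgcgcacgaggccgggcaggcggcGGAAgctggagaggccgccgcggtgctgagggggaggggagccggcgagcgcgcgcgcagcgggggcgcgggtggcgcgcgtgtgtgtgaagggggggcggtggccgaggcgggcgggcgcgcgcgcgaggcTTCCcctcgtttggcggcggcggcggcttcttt
The upstream SMARCA2 window held 3 matches to GGAA on either strand and the upstream SMARCA4 window 4, against a median of 3 over 35116 windows of the same length, of which 95.5% held at least 1. Of these upstream windows that of SMARCA4 was the more CpG-rich, with 55 CpG sites and 81.3% G or C, against 30 CpG sites and 66.7% in the upstream SMARCA2 window and a median of 14 CpG sites and 58.7% over all windows. The internal SMARCA2 window had 9 CpG sites and 43.0% G or C, and it held the pair GGAAGGAA (or TTCCTTCC on the other strand, both overlapping the single motif by construction) at 2 positions. That pair was present in 3.67% of all windows and in no other of the 14 windows matched to 8 members. Of the windows not shown, the other SMARCA4 window had 5 CpG sites, 57.0% G or C and 5 matches to GGAA, and the other SMARCA2 windows had 3 and 4 CpG sites and 0 and 7 matches. SMARCC1 had no window in the table. The FPKM values are per gene and do not show which start was used. The windows are 1 reference sequence for both lines, and the part of these motifs in the levels was not tested.

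LOXHD1, the gene of the targeted enhancer, was at 21.4 and 21.2 FPKM in RD-ES control and at 1.04 and 1.02 in RD-ES eKD2, and at 159 and 169 FPKM in SK-N-MC control and a mean of 11.5 in SK-N-MC eKD2, so that it separated the groups of each line as labelled. Low FPKM values moved in steps of whole reads, from which the relative depth of the libraries was estimated. The ratio rested on the step shared by 14.9% to 21.9% of the genes compared, so it is rough. The shallowest library was RD-ES eKD2 replicate 1, and the deepest, SK-N-MC control replicate 1, had 4.02 times its depth. All 12 markers of Ewing sarcoma were detected, with summed levels of 1006 to 1245 FPKM. The similar sums hide differences of single markers. Between the control cells 6 markers were higher and 2 lower in SK-N-MC (limma, adjusted p under 0.05), which is 66.7% against 57.8% of all genes tested. NR0B1, 1 of those higher, was at 2.38 to 3.84 FPKM in RD-ES and at 51.0 to 59.6 in SK-N-MC. Of 12 listed markers of other cell types, 11 had an entry. Among these 11, 6 were under 1 FPKM in every library, of which 3 were at 0 FPKM throughout. The sum of the 11 was 5.40 to 8.69 FPKM in RD-ES and 122 to 126 in SK-N-MC, where COL1A1 (40.7 to 46.0 FPKM), COL3A1 (50.6 to 56.8 FPKM), PTPRC (19.2 to 22.6 FPKM) and EPCAM (2.96 to 4.54 FPKM) made up nearly all of it. In bulk RNA, fewer cells of a type and less RNA per cell cannot be told apart. The part of these genes in the differences between the lines was not tested.

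The question of how much RNA of each regulator gene the lines carry was addressed with the control libraries. Protein levels and the make-up of the complexes were not measured in these libraries. KDM1A was the highest member in RD-ES at 334 ± 0.775 FPKM, followed in order by SMARCA4 (156 ± 8.62), EZH2 (127 ± 7.46), SMARCB1 (105 ± 14.9), SMARCC1 (88.3 ± 3.38), ARID1A (80.1 ± 0.518), EP300 (40.2 ± 6.02), ARID1B (33.9 ± 0.408) and SMARCA2 (1.54 ± 0.663) (mean FPKM ± SD, n = 2 each). No neighbours in that order overlapped in RD-ES control, although SMARCB1 (94.4 in its lower library) and SMARCC1 (90.7 in its higher library) lay close. In SK-N-MC the order was SMARCA4 (188 ± 13.1), KDM1A (167 ± 10.9), EZH2 (137 ± 0.119), SMARCA2 (132 ± 0.0467), SMARCB1 (132 ± 5.18), SMARCC1 (68.4 ± 0.241), ARID1B (56.7 ± 2.43), EP300 (55.1 ± 0.731) and ARID1A (53.5 ± 0.540) (mean FPKM ± SD, n = 2 each). There SMARCA2 and SMARCB1 overlapped, as did ARID1B and EP300, so that their order is not resolved. Apart from SMARCA2 in RD-ES, every member stood above the 73rd percentile of the genes tested in the control cells of both lines, from 73.8 for ARID1B in RD-ES to 97.8 for KDM1A in RD-ES. SMARCA2 was at percentile 13.1 in RD-ES control and 93.8 in SK-N-MC control.

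**Figure D1:**
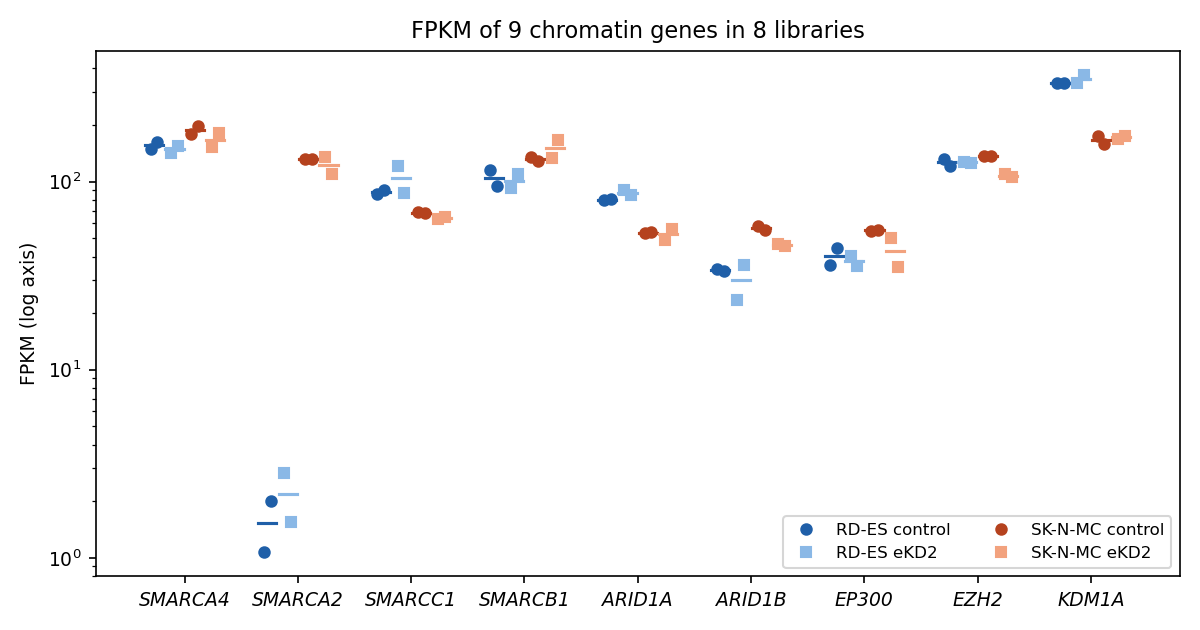
FPKM of the 9 members in each of the 8 libraries, on a log axis, with control libraries as circles, eKD2 libraries as squares and the mean of each group as a short line. SMARCA2 lies between 1.07 and 2.81 FPKM in RD-ES and between 109 and 134 FPKM in SK-N-MC, while KDM1A and ARID1A are higher in RD-ES.

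Of the 9 members, 4 differed between SK-N-MC control and RD-ES control (limma, adjusted p under 0.05), SMARCA2 and ARID1B being higher and KDM1A and ARID1A lower in SK-N-MC. That is 44.4% of the members, against 57.8% of all genes tested. Between the eKD2 cells of the lines it was 77.8% of the members, against 56.3% of all genes. Which share was the larger thus depended on the libraries compared. Between the control cells the number at an unadjusted p under 0.05 was 6 of 9, against 63.0% of all genes. The median difference of log2(FPKM + 1) was 0.27 over the members and 0.065 over all genes tested. Scaling each library to the same median lowered the median over all genes by 0.11 on the log2 scale, to -0.042. The median over the members was 0.12 after that scaling and 0.33 after quantile normalization.

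SMARCA2 was at 1.07 and 2.01 FPKM in RD-ES control and at 2.81 and 1.54 in RD-ES eKD2. In SK-N-MC it was at 132 and 132 FPKM in control and at 134 and 109 in eKD2. The lines did not overlap, the lowest SK-N-MC library lying far above the highest of RD-ES, and the control means differed 85.8-fold. On the log2(FPKM + 1) scale, which understates the difference of a gene this low, SK-N-MC control was higher by 5.74 (SE 0.25, 95% interval 5.12 to 6.35, limma adjusted p = 2.2e-05). The difference was 6.40 with a pseudocount of 0.1, and between 5.47 and 6.01 without 1 control library at a time. The gene spans bases 1980290 to 2193624 of chromosome 9 on the plus strand (GRCh37). An antisense gene, SMARCA2-AS1, overlaps 2.20% of its exonic bases and was at 0 FPKM throughout. The libraries were made with a kit that does not mark strand.

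SMARCA4, the other motor subunit, was at 150 and 162 FPKM in RD-ES control and at 143 and 155 in RD-ES eKD2. In SK-N-MC it was at 179 and 197 FPKM in control and at 153 and 181 in eKD2. Both SK-N-MC controls lay above both RD-ES controls, by 0.27 on the log2 scale (95% interval 0.012 to 0.52), which did not pass the threshold (limma adjusted p = 0.070). Quantile normalization brought the adjusted p to 0.026. The gene lies on chromosome 19, from base 11071608 to 11190102 on the plus strand (GRCh37).

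The share of SMARCA2 in the summed FPKM of both motor subunits was therefore 0.709% to 1.93% over the 4 RD-ES libraries and 37.7% to 46.8% over the 4 SK-N-MC libraries. The sum itself was 145 to 164 FPKM in RD-ES and 287 to 329 FPKM in SK-N-MC. In neither line did the share in the eKD2 libraries lie entirely on 1 side of that in the controls.

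The DNA-binding subunits ARID1A and ARID1B differed between the lines in opposite directions. ARID1A was at 79.7 and 80.4 FPKM in RD-ES control and at 53.1 and 53.9 in SK-N-MC control, a log2 difference of -0.57 (SE 0.082, limma adjusted p = 0.0017). ARID1B was at 34.2 and 33.6 FPKM in RD-ES control and at 58.5 and 55.0 in SK-N-MC control, a log2 difference of 0.73 (SE 0.18, limma adjusted p = 0.015). The call for ARID1B did not hold without any 1 of the 4 control libraries, with log2 differences of 0.68 to 0.77 and adjusted p of 0.061 to 0.081. Within each library the ratio of ARID1A to ARID1B was 2.33 to 3.82 in RD-ES and 0.908 to 1.23 in SK-N-MC, with no overlap. The ratio of 3.82 came from RD-ES eKD2 replicate 1, the shallowest library, and the other RD-ES libraries lay between 2.33 and 2.39. ARID1A lies on chromosome 1 (bases 27019727 to 27108595, plus strand, GRCh37) and ARID1B on chromosome 6 (bases 157097154 to 157531913, plus strand, GRCh37). Opposite-strand genes overlap 2.40% of the exonic bases of ARID1A and 1.63% of those of ARID1B, and their mean levels were 1.01 and 0.566 FPKM.

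**Figure D2:**
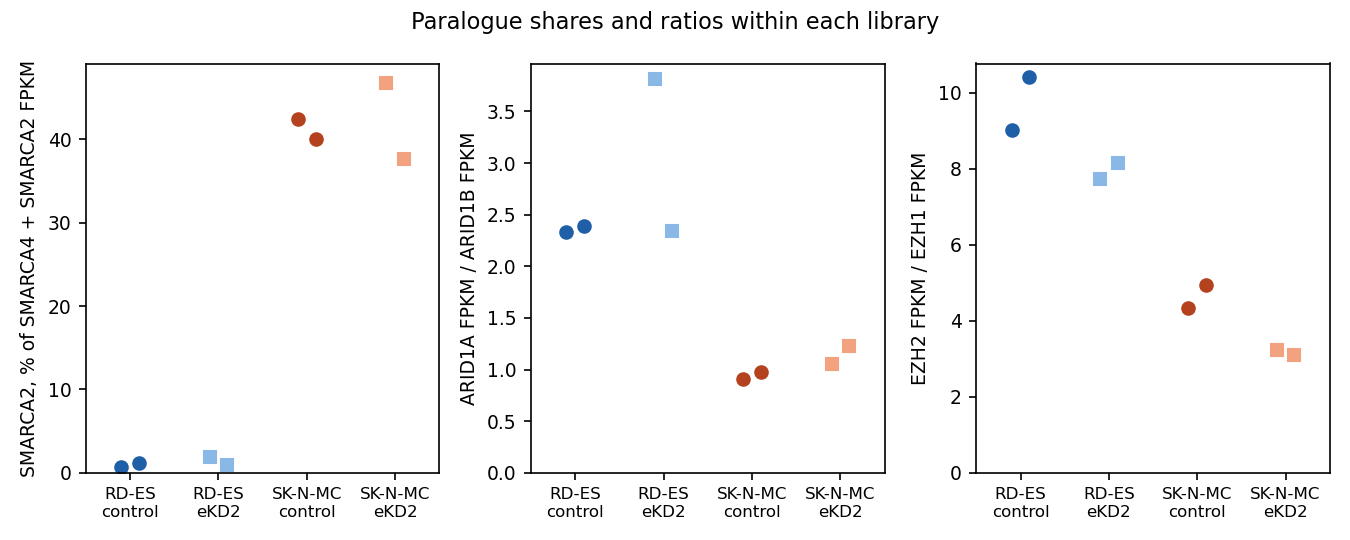
Share of SMARCA2 in the summed FPKM of SMARCA4 and SMARCA2 (left, percent), and ratios of ARID1A to ARID1B (middle) and EZH2 to EZH1 (right) in each library, with circles for control and squares for eKD2 and all axes starting at 0. The lines are apart in all 3 panels, and 1 RD-ES eKD2 library stands above the rest at an ARID1A to ARID1B ratio of 3.82.

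The core subunits SMARCC1 and SMARCB1 differed less. SMARCC1 was at 85.9 and 90.7 FPKM in RD-ES control and at 68.6 and 68.2 in SK-N-MC control, so that both SK-N-MC libraries lay lower, by -0.36 on the log2 scale (95% interval -0.72 to -0.0028, limma adjusted p = 0.078). After median scaling the difference was -0.51 with an adjusted p of 0.027, and with the control groups fitted alone the adjusted p was 0.011. SMARCB1 was at 115 and 94.4 FPKM in RD-ES control and at 136 and 128 in SK-N-MC control, a log2 difference of 0.33 (95% interval -0.041 to 0.71, limma adjusted p = 0.11). SMARCB1 lies on chromosome 22 (bases 24129118 to 24180196, plus strand, GRCh37), where DERL3, at 0.881 FPKM, overlaps 17.7% of its exonic bases on the opposite strand. SMARCC1 lies on chromosome 3 (bases 47626759 to 47823596, minus strand, GRCh37).

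KDM1A was at 333 and 334 FPKM in RD-ES control and at 175 and 159 in SK-N-MC control. The RD-ES mean was 2.00-fold that of SK-N-MC, a log2 difference of -0.998 for SK-N-MC against RD-ES (SE 0.074, 95% interval -1.18 to -0.82, limma adjusted p = 1.3e-04). The adjusted p stayed between 7.4e-05 and 0.0030 over the alternative analyses. KDM1A lies on chromosome 1 (bases 23345936 to 23410182, plus strand, GRCh37). RCOR1, the CoREST scaffold that holds KDM1A on chromatin, went the other way, with 27.2 and 28.2 FPKM in RD-ES control and 123 and 126 in SK-N-MC control (log2 difference 2.12, limma adjusted p = 1.8e-05). The ratio of KDM1A to RCOR1 was accordingly 11.8 to 18.1 in the 4 RD-ES libraries and 1.27 to 1.67 in the 4 SK-N-MC libraries.

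EZH2 was at 132 and 122 FPKM in RD-ES control and at 136 and 137 in SK-N-MC control, a log2 difference of 0.11 (95% interval -0.046 to 0.26, limma adjusted p = 0.19). Its paralogue EZH1, the weaker methyltransferase that can replace it in PRC2, was higher in SK-N-MC, with 14.6 and 11.7 FPKM in RD-ES control and 31.6 and 27.6 in SK-N-MC control (log2 difference 1.12, limma adjusted p = 5.8e-04). The ratio of EZH2 to EZH1 was 7.73 to 10.4 in RD-ES and 3.09 to 4.94 in SK-N-MC. EZH2 lies on chromosome 7 (bases 148504349 to 148581413, minus strand, GRCh37).

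EP300 was at 36.0 and 44.5 FPKM in RD-ES control and at 54.6 and 55.6 in SK-N-MC control, a log2 difference of 0.45 (95% interval -0.0041 to 0.91, limma adjusted p = 0.081). Its paralogue CREBBP varied within groups, at 26.4 and 103 FPKM in RD-ES control and at 103 and 57.7 in SK-N-MC control, so the ratio of EP300 to CREBBP (0.433 to 1.49 in RD-ES and 0.531 to 1.08 in SK-N-MC) did not separate the lines. EP300 lies on chromosome 22 (bases 41488596 to 41576081, plus strand, GRCh37).

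The eKD2 libraries allow the same comparison with levels from libraries other than the controls. The p-values are not independent of the controls, since 1 fit over all 8 libraries estimated the spread. Between SK-N-MC eKD2 and RD-ES eKD2, 7 of 9 members (77.8%) differed past the threshold, 3 higher and 4 lower in SK-N-MC, against 56.3% of all genes. SMARCA2 (log2 difference 5.30), KDM1A (-1.03), ARID1A (-0.73) and ARID1B (0.64) kept the direction they had in the controls. SMARCC1 (log2 difference -0.67, limma adjusted p = 0.0095), SMARCB1 (0.57, adjusted p = 0.022) and EZH2 (-0.24, adjusted p = 0.018) passed in addition, and EZH2 had the opposite sign in the controls. SMARCA4 (0.16, adjusted p = 0.24) and EP300 (0.14, adjusted p = 0.55) did not pass.

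**Figure D3:**
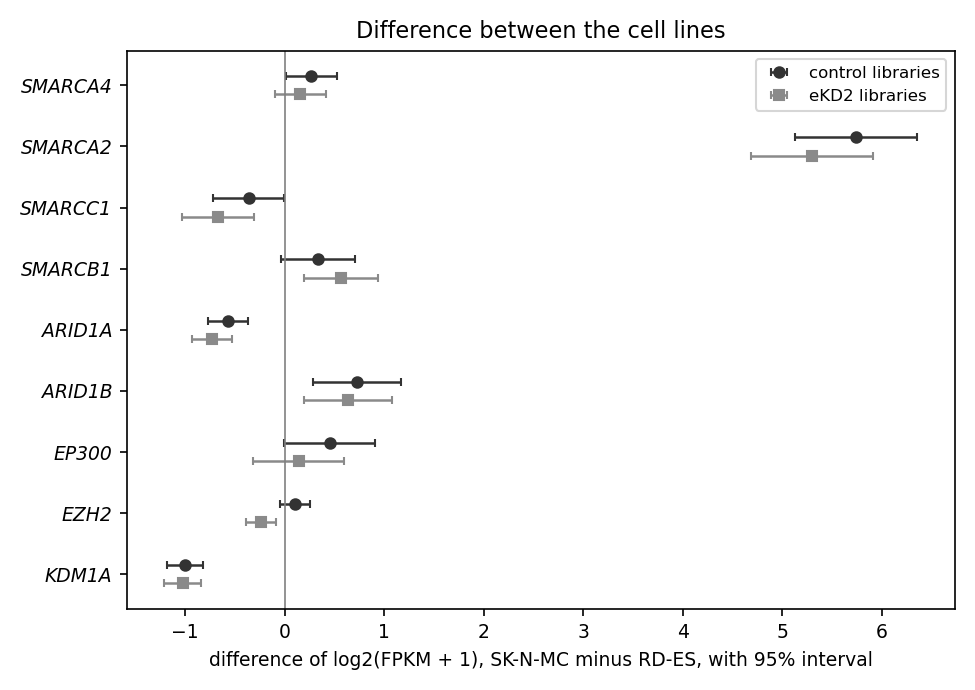
Difference of log2(FPKM + 1) between the lines, SK-N-MC minus RD-ES, for each member with its 95% interval from limma, in control libraries (circles) and eKD2 libraries (squares). SMARCA2 stands apart at 5.74 and 5.30, KDM1A lies near -1, and the intervals of EP300 cover 0 in both sets.

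The other genes of these complexes were followed in 4 lists of partners, 75 genes in all, of which 73 passed the filter. Between the control cells 45 of the 73 differed, 28 higher and 17 lower in SK-N-MC, which is 61.6% against 57.8% of all genes. The split moved with the scaling of the libraries, to 22 higher and 24 lower after median scaling and 25 higher and 19 lower after quantile normalization. Among 23 other BAF and related remodeller subunits, 8 were higher and 9 lower (4 and 10 after median scaling, 5 and 9 after quantile normalization). Without scaling that is 73.9% of the list, against 57.8% of all genes. BCL11B, a transcription factor associated with BAF, was higher in SK-N-MC (16.6 and 16.1 FPKM in RD-ES against 45.8 and 46.0 FPKM, log2 difference 1.43, limma adjusted p = 7.4e-05). BRD9, the bromodomain subunit of the non-canonical BAF form, was lower (62.4 and 64.8 against 29.9 and 27.3 FPKM, log2 difference -1.13, limma adjusted p = 1.4e-04), as was SMARCD1, a core subunit (254 and 245 against 131 and 130 FPKM, log2 difference -0.93, limma adjusted p = 1.7e-04). BCL11B also stood in the list of Ewing sarcoma markers.

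Among 11 PRC2 subunits 4 were higher and 4 lower in SK-N-MC control (4 and 5 after median scaling, 4 and 3 after quantile normalization). Without scaling that is 72.7% of the list, against 57.8% of all genes. The largest differences were those of SUZ12, the scaffold of the complex (21.7 and 19.3 against 55.6 and 53.3 FPKM, log2 difference 1.37, limma adjusted p = 1.1e-04), of EZH1, given above, and of PHF19, an accessory subunit that reads histone H3 lysine 36 methylation (14.6 and 15.8 against 29.9 and 38.5 FPKM, log2 difference 1.11, limma adjusted p = 0.0041). JARID2 was the other subunit that was higher (log2 difference 0.97), and the subunits that were lower were EPOP (-0.86), RBBP4 (-0.54), EED (-0.39) and RBBP7 (-0.34). The median over the 11 genes was -0.035.

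Among 21 partners of KDM1A in CoREST and NuRD, 9 were higher and 3 lower in SK-N-MC control (7 and 5 after median scaling, 9 and 4 after quantile normalization), whereas KDM1A itself was lower. The called partners were 57.1% of the list without scaling, against 57.8% of all genes. Of all called genes 54.3% were higher in SK-N-MC control (45.2% after median scaling, 49.4% after quantile normalization). Beside RCOR1, the largest differences were those of HMG20B, a CoREST subunit (22.3 and 33.9 against 64.5 and 70.3 FPKM, log2 difference 1.26, limma adjusted p = 0.0018), and RCOR2, a paralogue of RCOR1 (9.40 and 9.95 against 16.4 and 19.9 FPKM, log2 difference 0.84, limma adjusted p = 0.0013). Among 18 other coactivators and enhancer enzymes 7 were higher and 1 lower (7 and 4 after median scaling, 7 and 3 after quantile normalization). Without scaling that is 44.4% of the list, against 57.8% of all genes. NCOA2, a nuclear receptor coactivator, was higher (7.99 and 9.91 against 23.5 and 21.1 FPKM, log2 difference 1.23, limma adjusted p = 0.0048), as was the acetyltransferase KAT6A (20.0 and 24.2 against 45.0 and 38.3 FPKM, log2 difference 0.89, limma adjusted p = 0.0013). KMT2D, a methyltransferase of histone H3 lysine 4 at enhancers, was lower (52.2 and 54.4 against 28.9 and 32.2 FPKM, log2 difference -0.78, limma adjusted p = 0.0057).

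**Figure D4:**
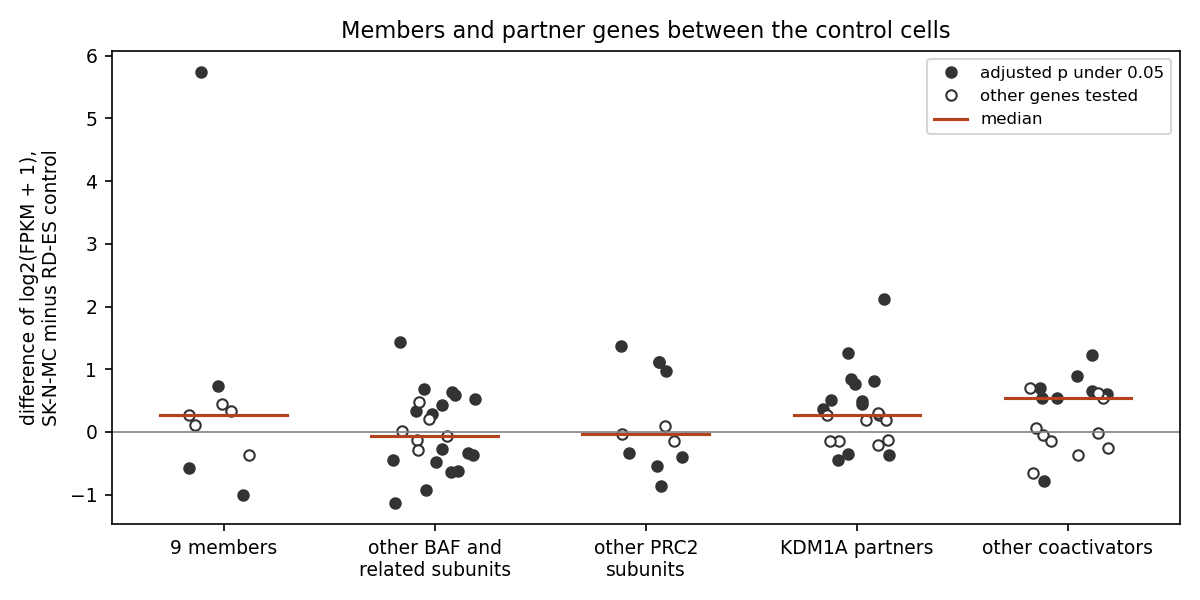
Difference of log2(FPKM + 1) between SK-N-MC control and RD-ES control for the 9 members and the 73 partner genes tested, by list, with filled points for an adjusted p under 0.05 (limma) and a line at each median. BAF and PRC2 subunits lie on both sides of 0, with 8 higher and 9 lower and with 4 higher and 4 lower past the threshold, and most of the called KDM1A partners (9 of 12) and coactivators (7 of 8) lie above it, fewer of them (7 of 12 and 7 of 11) after median scaling of the libraries, and 54.3% of all called genes lie above it (45.2% after median scaling).

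The effect of silencing the LOXHD1 enhancer on the same regulators was then compared within each line. No member passed the adjusted threshold in either line (limma), where the share of all genes that passed was 0.343% for RD-ES and 0.323% for SK-N-MC. At an unadjusted p under 0.05 there was no member in RD-ES (12.3% of all genes) and 1 in SK-N-MC, EZH2 (13.0% of all genes). The median difference of log2(FPKM + 1) over the members was 0.0014 for RD-ES (0.031 over all genes tested) and -0.12 for SK-N-MC (-0.0049 over all genes tested). The comparisons of the lines and of eKD2 against control share the control libraries.

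EZH2 was at 132 and 122 FPKM in RD-ES control and at 128 and 126 in RD-ES eKD2, the eKD2 values lying between those of the controls. In SK-N-MC it was at 136 and 137 FPKM in control and at 109 and 106 in eKD2, both eKD2 libraries lying below both controls. The SK-N-MC mean was 21.3% lower in eKD2, a log2 difference of -0.34 (SE 0.062, 95% interval -0.49 to -0.19, limma adjusted p = 0.14). By p it ranked 152 of the 15175 genes. The adjusted p lay between 0.11 and 0.45 over the alternatives. In RD-ES the log2 difference was 0.0014 (95% interval -0.15 to 0.15). Subtracting the RD-ES change from the SK-N-MC change gave -0.34 (95% interval -0.56 to -0.13, limma adjusted p = 0.23), so the difference between the lines did not pass the threshold either. Over the members none did, and 0.244% of all genes did. Among 14 proliferation genes none passed the adjusted threshold in SK-N-MC. Of the 14, 12 were lower in eKD2, with a median log2 difference of -0.23 (-0.0049 over all genes tested). At an unadjusted p under 0.05 there were 6 of 14, all lower, against 13.0% of all genes in either direction. Their summed level was 2901 and 2998 FPKM in SK-N-MC control and 2562 and 2587 in SK-N-MC eKD2, against 2519 and 2629 in RD-ES control and 2506 and 2440 in RD-ES eKD2. The part of proliferation in the EZH2 values was not tested.

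Of the BAF genes in SK-N-MC, SMARCC1 was at 68.6 and 68.2 FPKM in control and at 63.5 and 64.6 in eKD2 (log2 difference -0.093, 95% interval -0.45 to 0.27). ARID1B was at 58.5 and 55.0 FPKM in control and at 46.5 and 45.5 in eKD2 (log2 difference -0.30, 95% interval -0.74 to 0.15). EP300 was at 54.6 and 55.6 FPKM in control and at 50.3 and 35.0 in eKD2 (log2 difference -0.38, 95% interval -0.84 to 0.072). The EP300 value was -0.64 without SK-N-MC eKD2 replicate 1 and -0.13 without eKD2 replicate 2. With EZH2, these were the 4 members of which both eKD2 libraries lay below both controls, while none lay above and 5 overlapped. Of all genes 47.3% had both eKD2 libraries on 1 side of both controls in this line. SMARCB1 in SK-N-MC was at 136 and 128 FPKM in control and at 133 and 168 in eKD2, ARID1A at 53.1 and 53.9 in control and at 48.9 and 56.1 in eKD2, and KDM1A at 175 and 159 in control and at 169 and 175 in eKD2, all with overlap.

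In RD-ES, ARID1A was at 79.7 and 80.4 FPKM in control and at 90.2 and 84.6 in eKD2 (log2 difference 0.12, 95% interval -0.077 to 0.33), and it was the only member of which the groups did not overlap, against 39.3% of all genes. SMARCC1 in RD-ES was at 85.9 and 90.7 FPKM in control and at 121 and 87.0 in eKD2. ARID1B in RD-ES was at 34.2 and 33.6 FPKM in control and at 23.6 and 36.1 in eKD2. For both genes the outlying value, high for SMARCC1 and low for ARID1B, came from eKD2 replicate 1, the shallowest library. Without it the log2 difference of SMARCC1 went from 0.21 to -0.021 and that of ARID1B from -0.21 to 0.086. SMARCB1 was at 115 and 94.4 FPKM in RD-ES control and at 92.3 and 110 in RD-ES eKD2, EP300 at 36.0 and 44.5 in control and at 40.4 and 35.7 in eKD2, and KDM1A at 333 and 334 in control and at 334 and 371 in eKD2, with overlap in each.

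The 95% intervals of the eKD2 change bound what these libraries could show. They were narrowest for EZH2, KDM1A and ARID1A, where in RD-ES they ran from -0.15 to 0.15, from -0.11 to 0.26 and from -0.077 to 0.33. The interval was widest for SMARCA2, with bounds of -0.30 and 0.93 in RD-ES. Its bounds in SK-N-MC were -0.74 and 0.49. A p past the threshold was not reached, which does not show that the levels were equal.

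**Figure D5:**
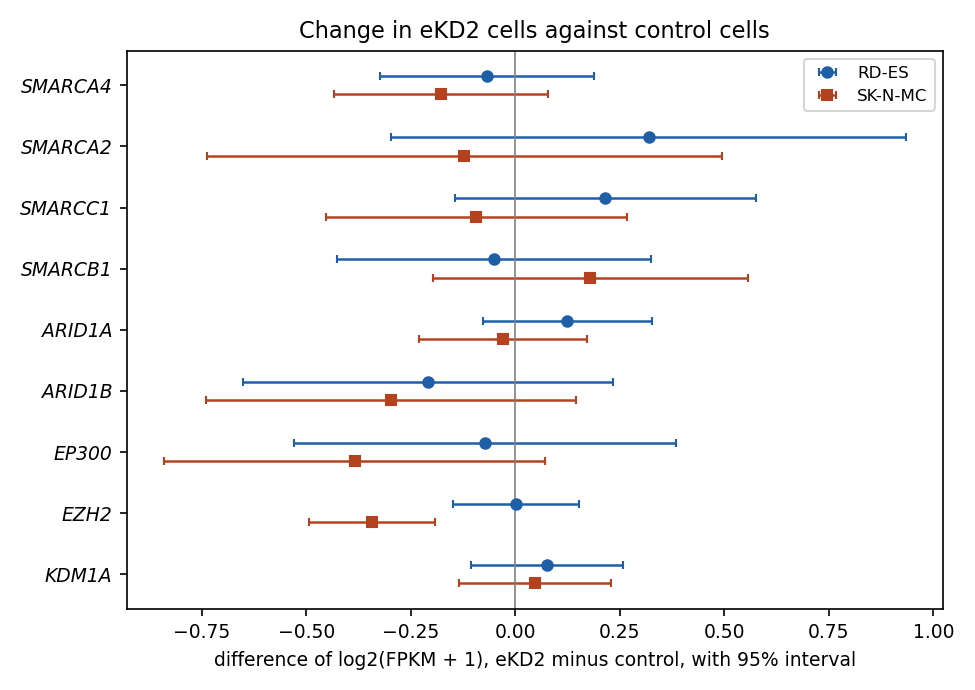
Difference of log2(FPKM + 1) between eKD2 and control cells for each member with its 95% interval from limma, in RD-ES (circles) and SK-N-MC (squares). The intervals cover 0 for every member in both lines except EZH2 in SK-N-MC, which lies at -0.34.

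In eKD2 cells of either line, none of the 73 partner genes had a limma adjusted p under 0.05. At an unadjusted p under 0.05 there were 9 of 73 in RD-ES (12.3%, as for all genes) and 7 of 73 in SK-N-MC (9.59%). In RD-ES the genes with the smallest p in their list were ACTB, which encodes the actin of BAF as well as of the cytoskeleton (log2 difference -0.29, limma adjusted p = 0.31), JARID2 of PRC2 (0.29, adjusted p = 0.27), RCOR2 of CoREST (0.45, adjusted p = 0.23) and the acetyltransferase KAT2A (0.22, adjusted p = 0.30). In SK-N-MC they were DPF1, a BAF subunit of neurons (-0.58, adjusted p = 0.23), EPOP of PRC2 (0.20, adjusted p = 0.45), RCOR1 (-0.23, adjusted p = 0.36) and again KAT2A (0.22, adjusted p = 0.28). KAT2A was at 30.7 and 30.3 FPKM in RD-ES control and at 37.2 and 34.4 in eKD2, and at 45.8 and 48.4 FPKM in SK-N-MC control and at 54.8 and 55.5 in eKD2, so that eKD2 lay above control in both lines. RCOR2 was at 9.40 and 9.95 FPKM in RD-ES control and at 14.0 and 13.2 in eKD2, and at 16.4 and 19.9 FPKM in SK-N-MC control and at 14.2 and 15.8 in eKD2, so that the groups lay apart in opposite directions (difference of the changes -0.71, limma adjusted p = 0.21). Without RD-ES control replicate 1 the log2 difference of NCOA3 in RD-ES was 1.29 (limma adjusted p = 0.030), the control library that remained being at 9.02 FPKM against 23.9 in the one left out and 24.2 and 23.0 in eKD2. The fusion partner gene EWSR1 had log2 differences of -0.28 for RD-ES and -0.31 for SK-N-MC, with limma adjusted p of 0.33 and 0.28, and FLI1 of -0.11 and -0.15, with adjusted p of 0.62 and 0.52.

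Genes with a pattern most like that of each member were found by Pearson's r of log2(FPKM + 1) over the 8 libraries, among 8719 genes whose mean was 10 FPKM or more. The 8 points share the cell line, so a high r often reflects no more than levels that differ between the lines. SMARCA2 was most like LOX, the collagen cross-linking enzyme (r = 0.999, 0.325 to 1.10 FPKM in RD-ES and 18.7 to 19.6 in SK-N-MC), and NAPG (r = 0.999). KDM1A was most like DNAH14 (r = 0.998, 39.9 to 48.9 FPKM in RD-ES and at most 3.25 in SK-N-MC) and SLC35F2 (r = 0.997), and ARID1A most like DPH3 (r = 0.996) and FBXO21 (r = 0.995).

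Within the members the r of SMARCA2 was -0.99 with KDM1A and -0.97 with ARID1A, and that of KDM1A with ARID1A was 0.97. SMARCC1 was most like STK11IP (r = 0.985) and RP11-640M9.2 (r = 0.984). Both had their highest value in RD-ES eKD2 replicate 1, at 30.4 and 30.7 FPKM against 22.9 to 24.4 in the other RD-ES libraries. ARID1B was most like GYS1 and FGF11 (r = 0.978 each), which were lowest in that library, at 12.5 and 7.45 FPKM. SMARCB1 was most like GPR108 (r = 0.988) and RAB30-AS1 (r = 0.973), and SMARCA4 most like SHANK1 (r = 0.975) and HDGFL2 (r = 0.965). EZH2 was most like CACHD1 (r = 0.963) and SCAF11 (r = 0.954), both lower in SK-N-MC eKD2 than in SK-N-MC control. CACHD1 was at 14.9 and 14.7 FPKM in SK-N-MC eKD2 against 21.1 and 22.0 in SK-N-MC control. All these genes were picked by r over the same 8 libraries. A high or low value shared with the member is therefore part of that choice and no separate evidence. EP300 had the lowest values of r, with LYRM2 (0.935) and GTF3C3 (0.918). Its r with the other members lay between -0.63 and 0.62.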

How the data were processed

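RNA-seq libraries from poly-A selected RNA were aligned by the authors with STAR to GRCh37 (hg19), and the deposited FPKM values per gene and library were computed by the authors with Cuffnorm. Read numbers are not given with the values, so the study's count-based test was not run. From the FPKM values, log2(FPKM + 1) was compared for the 15175 of 60332 genes whose mean was 1 FPKM or more, with limma 3.58.1 in R 4.3.3 (lmFit and eBayes with trend, 4 groups of 2 libraries in 1 fit) and Benjamini-Hochberg adjustment over all genes tested, with 0.05 as threshold. Intervals are at 95%. All p-values are from this limma model and two-sided. The script was tested on simulated data. Tables and plots were made in Python 3.11.15 with pandas 2.3.3, numpy 2.4.6 and matplotlib 3.10.9. No column belonged to another series.

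Groups came from the sample titles. The members, the partner lists and the marker lists were chosen with earlier results of these data known. Named were all members, the 3 partner genes per list with the largest called difference between control lines, the gene with the smallest p per list and line in eKD2, the 2 genes most like each member, LOXHD1, EWSR1 and FLI1. NCOA3, CREBBP, RBBP4, EED, RBBP7 and the marker genes were named after their values were seen. Gene positions and overlaps are from GENCODE (release 44 lifted to GRCh37), and the authors' release may differ. Low values were used for relative depth where they were at most 0.3 FPKM, with ratios matched to 4 significant digits. Alternatives were a pseudocount of 0.1, no filter, median scaling, quantile normalization, groups fitted alone, no trend, a replicate block, leaving out 1 library, and the eKD2 libraries in place of the controls.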

Additional observations from a re-analysis of the deposited data

How the results depend on the processing

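The number of members past the threshold was 0 in eKD2 against control in both lines and in the difference between the lines under every alternative run. Between the control cells it was 4, and 3 to 5 under the alternatives, except 7 with the eKD2 libraries in place of the controls. The number of partner genes called in RD-ES eKD2 was 0 to 1 without 1 library at a time. Same-numbered libraries deviated together with r of only 0.056 (RD-ES) and 0.027 (SK-N-MC), so the numbers were not taken as pairs. With a replicate block SMARCA4 passed between the control cells (log2 difference 0.27, limma adjusted p = 0.017), the number of members called was 5, and no other call of a member changed.

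Some differences that did not pass the threshold changed sign. Median scaling gave -0.070 for EZH2 in RD-ES eKD2, -0.042 for EZH2 between the control cells and 0.055 for the difference of the KDM1A changes, and the eKD2 libraries gave -0.24 for EZH2 between the lines. The cause was not tested. Without 1 library at a time the log2 difference in RD-ES eKD2 ran from -0.19 to 0.092 for SMARCB1, -0.22 to 0.077 for EP300, -0.058 to 0.061 for EZH2, -0.021 to 0.45 for SMARCC1 and -0.50 to 0.086 for ARID1B. In SK-N-MC eKD2 it ran from -0.019 to 0.11 for KDM1A, -0.13 to 0.067 for ARID1A and -0.27 to 0.025 for SMARCA2. The difference of the changes ran from -0.38 to 0.21 for ARID1B, -0.10 to 0.046 for KDM1A and -0.23 to 0.011 for SMARCA4. Summing several entries of a symbol was not needed, since each member had 1, and the difference of the changes needs all groups, so it was not fitted alone. The number of 2 libraries a group limits the precision, and the read depth behind the values is known only as a rough ratio, which entered no fit.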
